A study of Mus musculus with 33 samples.

Results

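The response to sleep deprivation was examined in the frontal cortex of Mef2c-cKO mice (Mef2cCKO in the labels), which lack a functional Mef2c gene in Camk2a-expressing neurons. The comparison set 3 sleep-deprived (SD) libraries against 3 control-sleep (CS) libraries, 6 of the 33 libraries of the series. Genes entered the comparison when CPM, the read count scaled to library depth, was 1 or more in every replicate of at least one of the groups. This left 12810 of the 21565 listed genes. All mice were adult males on a C57BL/6J background. CS mice slept ad libitum and SD mice were kept awake for 6 hr on a slowly moving treadmill, and brains were taken at the same circadian time. The Mef2c-cKO mice carried Mef2c alleles with loxP sites around an exon of the DNA-binding region, and Cre driven by the Camk2a promoter. Mef2c f/f mice (4 CS and 3 SD libraries) carried the loxP alleles without Cre, and WT mice (6 CS and 7 SD) carried neither. No group carried Cre alone, so the effects of the deletion and of the Cre transgene cannot be told apart. Cre from this promoter acts in excitatory neurons of the forebrain, so Mef2c stays intact in the other cells of the tissue. Per the study's methods, some knockout mice also carried a recombined allele in the tail and so lacked 1 copy in all cells, among them 2 of the 3 CS mice. Which CS libraries these are, and whether SD mice carried it, is not given in the labels. Nothing in the labels says how litters or days were spread over the groups, and p-values measure the spread between these libraries only.

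MEF2C is a transcription factor of the MADS-box family that binds A/T-rich sites near its target genes. In neurons its activity is set by calcium entry, phosphorylation and class IIa histone deacetylases, and it is known for restraining or promoting excitatory synapses according to cell type and age. Sustained wakefulness is known to raise immediate early genes such as Fos and Arc, chaperones of the endoplasmic reticulum and, in some strains, heat shock genes, and to shift clock genes. The comparison asks which of these changes the cortex of the knockout shows after sleep loss.

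Only 3 of the 12810 genes (0.0234%) passed the test, and all 3 were higher in SD: Cep295, Myo3a and Fbxo8. The test was limma on log2 values of rescaled CPM (CPM divided by a median-of-ratios factor per library) with 0.5 added. A gene counted as a DEG with a p of 0.05 or less after Benjamini-Hochberg adjustment and a log2 fold change of 0.3 or more in size. No gene passed in the lower direction (0%), where 164 genes had an unadjusted p of at most 0.05, against 227 in the higher direction and 391 in both (3.05%). If no gene responded, a share of 0.05 of the genes would be expected there on average. On the recovered read counts edgeR called 3 genes and DESeq2 called 25 (0.195%), 22 of them higher and 3 lower. Both tools called Cep295, Myo3a and Fbxo8. By the same rule 5 of 12410 genes (0.0403%) were DEGs in Mef2c f/f mice and 5826 of 12913 (45.1%) in WT mice. At an unadjusted p of at most 0.05, 1061 genes were higher and 1050 lower in Mef2c f/f SD, against 227 and 164 in the knockout. Neither edgeR nor DESeq2 was run on Mef2c f/f or WT mice alone. These groups had more libraries than the knockout, and the median SE of a log2 fold change was 0.118 in Mef2c-cKO, 0.110 in Mef2c f/f and 0.124 in WT mice. Across genes, the log2 fold change followed the GC content of the transcript with a Spearman rho of -0.02 in Mef2c-cKO mice, -0.30 in Mef2c f/f mice and 0.72 in WT mice. With the trend of each library over GC content and length removed, 1158 genes rose and 1392 fell in WT mice, where 3183 rose and 2643 fell without this correction, and 811 and 875 of them were called both ways. In Mef2c-cKO mice the same 3 genes were called after the correction.

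The sequences upstream of the 3 genes that rose are shown because these genes carry the whole of the called response. Each line gives the bases before the start of the gene in GRCm38.p6, 5′ to 3′ on the gene's strand, from RefSeq. Capitals mark matches, on either strand, to the E-box CACGTG, the cyclic AMP response element (CRE) TGACGTCA, its core TGACG or a MEF2 site.
Cep295, chr9:15357789-15358038, minus strand: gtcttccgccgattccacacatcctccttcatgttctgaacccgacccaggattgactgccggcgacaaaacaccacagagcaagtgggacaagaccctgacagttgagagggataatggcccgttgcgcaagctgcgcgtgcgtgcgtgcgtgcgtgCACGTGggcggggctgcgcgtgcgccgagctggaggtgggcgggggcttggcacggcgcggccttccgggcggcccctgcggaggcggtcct
Myo3a, chr2:22227253-22227502, plus strand: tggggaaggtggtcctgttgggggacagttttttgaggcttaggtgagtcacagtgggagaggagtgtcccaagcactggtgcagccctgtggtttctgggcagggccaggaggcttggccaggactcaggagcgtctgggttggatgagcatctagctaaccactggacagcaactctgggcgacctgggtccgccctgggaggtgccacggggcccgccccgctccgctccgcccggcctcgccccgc
Fbxo8, chr8:56550904-56551089, plus strand: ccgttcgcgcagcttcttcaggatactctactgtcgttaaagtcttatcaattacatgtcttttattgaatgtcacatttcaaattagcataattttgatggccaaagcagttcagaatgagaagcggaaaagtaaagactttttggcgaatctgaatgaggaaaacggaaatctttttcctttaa
The Cep295 sequence held 1 E-box and was rich in G and C (67.2%), as was that of Myo3a (66%), which held no match. The Fbxo8 sequence had a G and C content of 36.0% and held no match in its 186 bases. It is shown up to the gene's start in the GENCODE annotation, which lies 64 bases before the RefSeq start, and those 64 bases, which are not shown, held 2 CRE cores. Of 32851 RefSeq windows of 250 bases, 6.02% held an E-box, 1.55% a full CRE, 17.8% its core, which the full CRE contains, and 2.92% a MEF2 site. A match describes these letters only.

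The 6 Mef2c-cKO libraries held 29593825 to 94678945 reads, the deepest being SD 7, against 18935045 to 52918796 in Mef2c f/f and 44395583 to 218548740 in WT mice. Libraries are named by group and replicate number. Between any pair of Mef2c-cKO libraries Spearman's rho across genes was 0.974 to 0.997. Of the 6 libraries 3 stood apart, and results are given with CS 8 and SD 6 left out together, or with CS 5 left out, where these libraries moved them most. CS 8 led the first principal component (47.7% of the variance), with 117 genes at least 2-fold above every other Mef2c-cKO library. Gfap, an astrocyte filament gene, had 1368 rescaled CPM there against 68.9 to 364, and the summed microglia and macrophage markers 635 against 210 to 275. SD 6 led the next component (25.5%), with 40 genes at least 2-fold above the others and a summed level of immediate early transcription factors of 616 against 290 to 361. CS 5 led the third component (13.9%) and held a choroid plexus marker sum of 326 against 7.21 to 24.9, with the striatal marker sum at 683 against 221 to 583. Excitatory neuron markers summed to 1585 to 2079 in the 6 libraries, against 1775 to 2308 in the CS and SD libraries of the other genotypes, and CS 5 (1585) and SD 5 (1764) lay below the lowest of these. In bulk tissue, fewer cells of a type and less RNA per cell cannot be told apart.

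Mef2c itself had 957, 1608 and 1727 rescaled CPM in CS 5, 7 and 8, and 1499.8, 1116 and 1317 in SD 5, 6 and 7. The groups overlapped, with a log2 fold change of -0.09 (SE 0.24, 95% interval -0.66 to 0.48). Whole-gene counts do not check the deletion, since the exons outside the loxP sites are still transcribed in recombined cells and the gene is intact elsewhere.

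Cep295, which encodes a centrosomal protein needed for centriole elongation, lies at chr9:15316915-15357788 on the minus strand of mm10. It had 76.1, 69.6 and 66.2 rescaled CPM in CS 5, 7 and 8 and 281, 259 and 259 in SD 5, 6 and 7. The groups were far apart, with every SD library more than 3 times every CS library. The mean went from 70.6 ± 5.03 in CS to 266 ± 12.9 in SD (SD, n = 3 each), a 3.77-fold difference. On the log2 scale the rise was 1.91 (SE 0.08, 95% interval 1.72 to 2.09, limma adjusted p = 0.000617, edgeR adjusted p = 0.00117). In Mef2c f/f mice Cep295 was at 55.3 to 68.6 rescaled CPM in CS and 59.8 to 62.2 in SD, ranges that lie inside each other, with a log2 fold change of -0.01 (95% interval -0.19 to 0.18). In WT mice it fell, from 60.5 to 109 rescaled CPM in CS to 47.6 to 62.8 in SD (log2 fold change -0.50, limma adjusted p = 0.00639). The knockout's response exceeded that of Mef2c f/f mice by 1.91 (SE 0.11, interaction adjusted p = 3.49e-06) and that of WT mice by 2.41 (SE 0.19, adjusted p = 1.81e-06). The call held with each Mef2c-cKO library left out (adjusted p 0.00221 to 0.0176).

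Myo3a, a class III myosin with a kinase domain known from the stereocilia of hair cells, lies at chr2:22227503-22618252 on the plus strand. Its levels were 60.9, 63.7 and 57.4 rescaled CPM in the CS libraries and 187, 185 and 152 in the SD libraries, in the same order. The 3 SD libraries again lay together above the 3 CS libraries. Means were 60.7 ± 3.13 and 175 ± 19.7 (SD, n = 3 each), 2.88-fold apart, and the log2 fold change was 1.51 (SE 0.10, 95% interval 1.28 to 1.75, limma adjusted p = 0.00719). The call was lost without CS 7 (adjusted p = 0.0797), SD 5 (0.0834) or SD 6 (0.0526). Mef2c f/f libraries spread from 46.1 to 86.9 in CS and 53.0 to 74.0 in SD, with a log2 fold change of 0.06 (95% interval -0.39 to 0.51). The difference in response from Mef2c f/f mice, 1.45 (95% interval 0.88 to 2.03), did not pass over all genes (adjusted p = 0.16). WT libraries held only 0.741 to 1.96 rescaled CPM of Myo3a and were not tested for it alone, so the level already differed between the floxed lines and WT mice in control sleep. Myo3a entered the comparison with WT mice through the knockout alone, and no difference in response from WT mice is read for it.

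Fbxo8, an F-box protein with a Sec7 domain, lies at chr8:56551090-56593939 on the plus strand. CS libraries held 34.9, 34.2 and 37.1 rescaled CPM, and SD libraries 96.0, 73.5 and 86.0. The lowest SD library was still about 2 times the highest CS library. Means were 35.4 ± 1.53 and 85.2 ± 11.2 (SD, n = 3 each), 2.41-fold apart, with a log2 fold change of 1.25 (SE 0.11, 95% interval 1.0 to 1.5, limma adjusted p = 0.0296). This call was the most dependent on single libraries. It was lost without CS 5 (adjusted p = 0.149), CS 7 (0.257), CS 8 (0.0589), SD 5 (0.104) or SD 7 (0.362), and held without SD 6 (0.031). In Mef2c f/f mice the log2 fold change of Fbxo8 was 0.23 (95% interval -0.09 to 0.54), at 24.1 to 37.5 rescaled CPM in CS and 31.2 to 39.8 in SD. In WT mice Fbxo8 fell by 0.59 on the log2 scale (limma adjusted p = 0.0025), from 40.5 to 66.2 rescaled CPM in CS to 25.7 to 37.2 in SD. The knockout's response exceeded that of WT mice by 1.84 (SE 0.20, adjusted p = 6.67e-05), and its excess of 1.02 over Mef2c f/f mice did not pass (95% interval 0.60 to 1.45, adjusted p = 0.203).

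**Figure D1:**
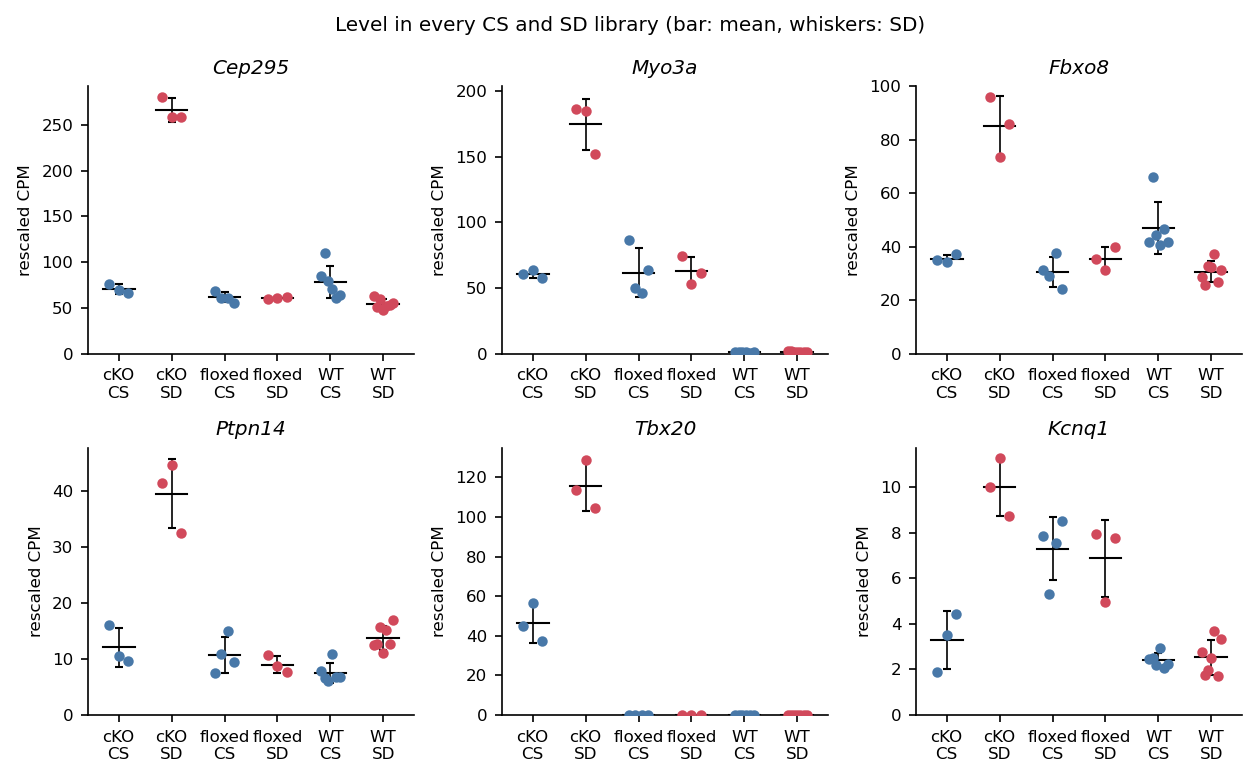
Rescaled CPM (linear axis) of Cep295, Myo3a, Fbxo8, Ptpn14, Tbx20 and Kcnq1 in every CS and SD library of Mef2c-cKO, Mef2c f/f (floxed) and WT mice, with 1 point per library, a bar at the group mean and whiskers of 1 SD. Cep295, Myo3a and Fbxo8 are higher in the 3 Mef2c-cKO SD libraries than in the 3 CS libraries, and the Mef2c f/f groups overlap for each of them.

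With CS 8 and SD 6 both left out, Cep295 (adjusted p = 0.00422), Fbxo8 (0.0137) and Myo3a (0.0335) were still called, together with Glp2r, a receptor for a gut peptide at 1.67, 1.91 and 3.35 rescaled CPM in CS and 7.05, 8.54 and 6.61 in SD. The 3 genes lie on different chromosomes. Of the 3 nearest tested genes on each side, none was called for Cep295, Myo3a or Fbxo8. Their log2 fold changes ran from -0.16 to 0.18 around Cep295, from -0.43 to 0.15 around Myo3a and from -0.49 to 0.05 around Fbxo8. Cep44, which starts 0.04 kb from Fbxo8, had a log2 fold change of -0.18, and Taf1d, which overlaps the end of Cep295, 0.01. The strand setting used for counting is not given in the sources used here, and reads from overlapping genes were therefore not separated further.

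**Figure D2:**
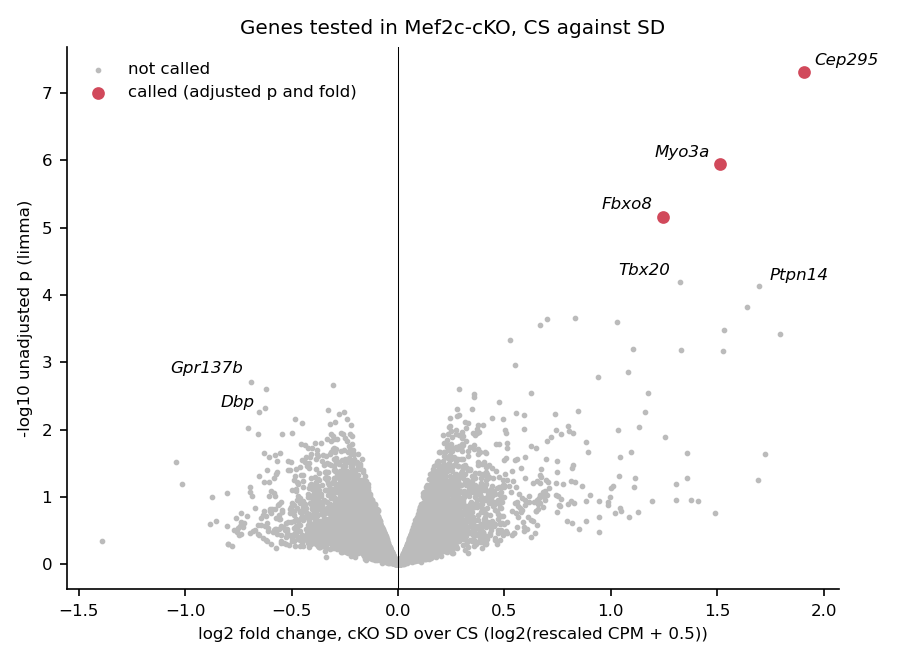
Log2 fold change (SD over CS, x axis) against -log10 of the unadjusted limma p (y axis) for the 12810 genes tested in Mef2c-cKO mice, with the 3 DEGs and the next genes marked. Cep295, Myo3a and Fbxo8 stand above all other genes, and the next ones, Ptpn14 and Tbx20, are also on the higher side.

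After these 3 genes came a small group with large differences that did not pass limma's test. Ptpn14, a tyrosine phosphatase that binds YAP, had 16.1, 10.5 and 9.67 rescaled CPM in CS and 41.6, 44.6 and 32.6 in SD. All SD libraries were above all CS libraries, and the log2 fold change was 1.70 (SE 0.21, 95% interval 1.21 to 2.18, limma adjusted p = 0.19). DESeq2 called it (adjusted p = 4.79e-10), and limma called it without CS 5 (0.0418). WT mice also raised Ptpn14, by 0.85 (limma adjusted p = 0.000768), and Mef2c f/f mice had -0.20.

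Tbx20, a T-box factor of heart development, had 44.8, 56.7 and 37.2 rescaled CPM in the Mef2c-cKO CS libraries and 113, 129 and 104 in SD, without overlap. In Mef2c f/f libraries Tbx20 was at 0 to 0.0543 rescaled CPM and in WT libraries at 0 to 0.0174. The log2 fold change in the knockout was 1.33 (SE 0.16, 95% interval 0.95 to 1.70, limma adjusted p = 0.19, DESeq2 adjusted p = 3.22e-10). The level of this gene thus differed between the genotypes in control sleep too. With Tbx20 at or near 0 in the other genotypes, their response could not be measured and no difference in response is read. The genes beside Tbx20 had log2 fold changes of -0.06 to 0.19.

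Of the other large positive differences whose groups did not overlap, 2 patterns were seen. Kcnq1, a voltage-gated potassium channel, had 1.90, 3.52 and 4.43 rescaled CPM in CS and 9.99, 11.3 and 8.74 in SD (log2 fold change 1.53, limma adjusted p = 0.549, DESeq2 adjusted p = 0.00034), while Mef2c f/f libraries lay at 4.94 to 8.50. The rest were histone H4 genes. Hist1h4k had 1.27, 3.26 and 2.22 rescaled CPM in CS and 10.1, 7.09 and 8.81 in SD (log2 fold change 1.79, limma adjusted p = 0.407, DESeq2 adjusted p = 5.99e-05). Hist1h4m, Hist1h4j and Hist1h4c had log2 fold changes of 1.72, 1.36 and 1.36, each with an adjusted p of 0.998. The H4 genes are near-identical copies and only uniquely mapped reads were counted, so the count of each copy is uncertain. Replication-dependent histone transcripts also mostly lack the poly(A) tail on which these libraries depend.

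No lower difference passed limma's test, and the 10 largest whose groups did not overlap had log2 fold changes of -1.04 to -0.62. Dbp, a clock-controlled transcription factor, had 46.0, 44.2 and 41.6 rescaled CPM in CS and 33.8, 23.3 and 28.9 in SD. All SD libraries were below all CS libraries (log2 fold change -0.62, SE 0.14, 95% interval -0.94 to -0.30, limma adjusted p = 0.998, DESeq2 adjusted p = 0.0443). The Mef2c f/f value of Dbp was -0.14 and the WT value 0.34. Gpr137b, a lysosomal membrane protein, had 15.6, 14.2 and 17.8 rescaled CPM in CS and 10.2, 8.01 and 10.8 in SD (log2 fold change -0.69, limma adjusted p = 0.998, DESeq2 adjusted p = 0.0276). Dnah7b (-1.04) rested mostly on CS 5, at 71.3 rescaled CPM against 26.6 and 23.5 in the other CS libraries and 16.1 to 18.7 in SD, and was -0.55 without that library. Rpl29 (-0.70), Ldhd (-0.66), Gpr34 (-0.65), Ppm1m (-0.65), S100a13 (-0.63), Galns (-0.62) and Krt12 (-0.62) made up the rest. For Gpr34, a microglial receptor, and S100a13 the highest CS library was CS 8, at 27.7 and 32.5 rescaled CPM, the library with the raised microglial markers.

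The remaining genes were grouped into 39 lists by function, 10 of them cell type markers, with 793 members tested. None was a DEG, and none was called by edgeR. DESeq2 called 4 of them, Dbp, Hist1h4k, Kcnq1 and Rps14. Over all 12810 genes, the 3 SD libraries lay above the 3 CS libraries in 4.49% of genes and below in 4.56%, together 9.05%, and the median log2 fold change was -0.01. Where leaving out CS 8 and SD 6 together, or CS 5 alone, moved the median of a list by more than 0.1, the value without them is given. The median over all genes was 0.01 without CS 8 and SD 6 and -0.01 without CS 5. Of the 12810 genes, 3056 were called higher and 2469 lower in WT mice, the base for the WT counts in the lists. List values of every genotype are given without the correction for GC content and length. In WT mice the log2 fold change followed GC content (Spearman rho 0.72), and its part in the WT medians was not tested.

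Among the 19 tested immediate early transcription factors, 18 had a positive log2 fold change and the median was 0.45 (Mef2c f/f 0.53, WT 0.51). Without CS 8 and SD 6 it was 0.11. In 3 of the 19 (15.8%), Jund, Klf4 and Egr3, all SD libraries lay above all CS libraries. Fos had 11.1, 4.48 and 5.93 rescaled CPM in CS and 8.28, 45.0 and 4.98 in SD. Only SD 6 was high, and SD 7 was below CS 5 and CS 8 (log2 fold change 0.85, SE 0.75, 95% interval -0.93 to 2.63). Egr2 had 3.59, 0.448 and 0.517 rescaled CPM in CS and 2.42, 18.9 and 1.05 in SD, the same order among the SD libraries. Junb had 13.5, 11.9 and 13.6 rescaled CPM in CS and 13.1, 44.9 and 11 in SD. Egr3 had 8.94, 6.77 and 4.13 in CS and 10.4, 16.5 and 8.94 in SD (log2 fold change 0.82, SE 0.31), the SD 7 and CS 5 values being nearly equal. The interval lay within 1.5-fold of no change for 2 of the 19 genes and within 2-fold for 8, so for most of them these 6 libraries bound the response only loosely.

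Activity-regulated effectors, such as Arc and Bdnf, showed the same library. Of 22 tested, 20 had a positive value, with a median of 0.38 (Mef2c f/f 0.38, WT 0.10) that was 0.10 without CS 8 and SD 6. In 1 of them (4.55%), Gadd45b, the groups did not overlap. Arc, a regulator of AMPA receptor trafficking, had 61.2, 36.6 and 35.6 rescaled CPM in CS and 57.6, 145 and 48.0 in SD (log2 fold change 0.77, SE 0.42). Bdnf, the neurotrophin, had 26, 23.5 and 29.7 in CS and 35.4, 151 and 27.1 in SD. Ptgs2, the inducible cyclooxygenase, had 9.44, 11.2 and 21.6 in CS and 12.3, 126 and 10.9 in SD. SD 6 was more than 2 times every other library for these 3 genes, while SD 5 and SD 7 lay in or near the CS range. Homer1 (407, 287 and 295 in CS, 436, 660 and 319 in SD) and Nptx2 (22.5, 26.9 and 27.0 in CS, 27.3, 145 and 23.0 in SD) were also highest in SD 6. MAP kinase phosphatases and Sprouty proteins, feedback inhibitors of the ERK pathway, had a median of 0.12 over 13 genes, -0.14 without CS 8 and SD 6 and 0.26 without CS 5, and none of the 13 was without overlap. SD 6 was the highest library for Dusp4 (21.5 rescaled CPM against 4.46 to 7.08) and for Dusp6 (92.2 against 32.9 to 60.9).

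**Figure D3:**
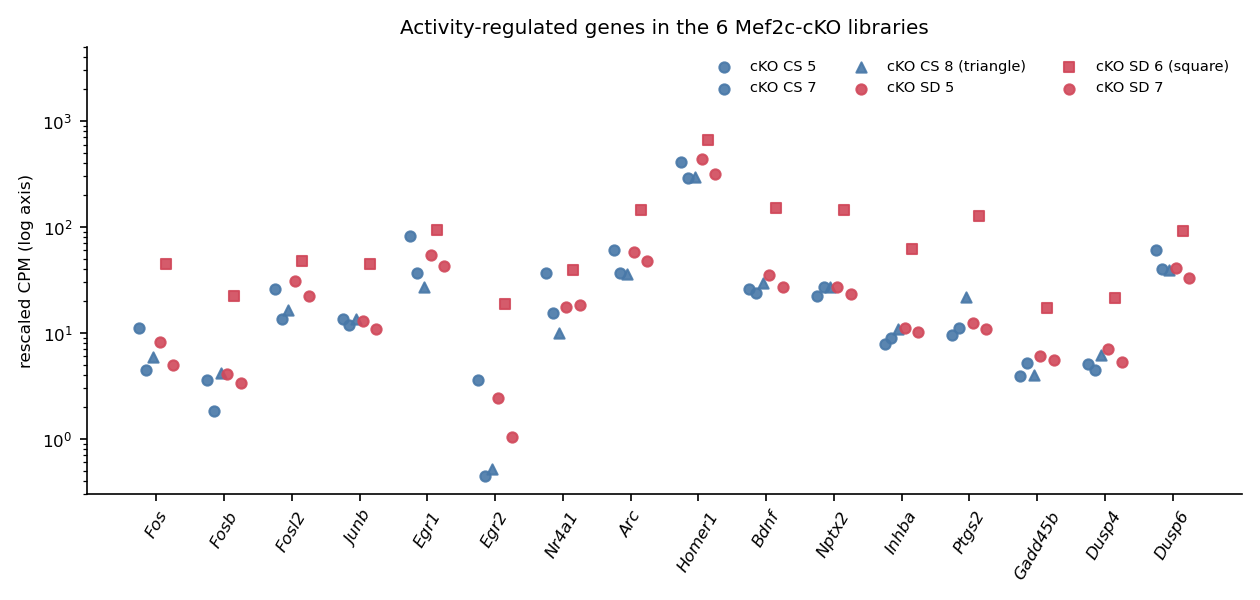
Rescaled CPM (log axis) of activity-regulated genes in each of the 6 Mef2c-cKO libraries, CS 5, 7 and 8 and SD 5, 6 and 7, with 1 point per library. SD 6 is the highest library for Fos, Arc, Bdnf and Ptgs2, and SD 5 and SD 7 lie in or near the CS range.

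Clock genes are known to shift with prolonged wakefulness. The 5 activators (Arntl, Clock, Npas2, Rora and Rorb) had a median of 0.05 in Mef2c-cKO mice and 0.17 without CS 8 and SD 6, against -0.04 in Mef2c f/f mice and -0.51 in WT mice, where all 5 fell. For Clock, the DNA-binding partner of BMAL1, the Mef2c-cKO libraries held 194, 188 and 175 rescaled CPM in CS and 192, 218 and 182 in SD (log2 fold change 0.09, 95% interval -0.13 to 0.30). The WT value of -0.51 lies outside this interval, and the difference between genotypes was not called over all genes. The 7 repressors had a median of -0.17 (WT 0.20), with Per1 at 0.16 (95% interval -0.24 to 0.56) and Per2 at 0.12 (95% interval -0.27 to 0.51). The 6 output factors had a median of -0.08 (WT 0.24), and among them Dbp alone (16.7%) had groups that did not overlap. None of the activators or repressors did.

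Chaperones of the endoplasmic reticulum and the unfolded protein response showed small positive values. Of 22 genes tested, 21 were positive, with a median of 0.19 (0.15 without CS 8 and SD 6, Mef2c f/f 0.31, WT 0.30). Hyou1 had 80.3, 80.2 and 83.8 rescaled CPM in CS and 98.8, 105 and 92.7 in SD (log2 fold change 0.28, SE 0.07), and Dnajb11 and Hyou1 (9.09% of the list) were above in every SD library, while Edem1 was below. Hspa5, the central chaperone BiP, had 171, 165 and 240 in CS and 257, 264 and 190 in SD. Its groups overlapped through CS 8 and SD 7 (log2 fold change 0.31, 95% interval -0.12 to 0.74). Intervals lay within 1.5-fold of no change for 18 of the 22 genes.

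Cytosolic heat shock proteins had a median of 0.13 over 20 genes, 19 of them positive (0.11 without CS 8 and SD 6, Mef2c f/f 0.11, WT 0.08). In 5 of them (25%), Hspa4, Hsp90ab1, Dnajb1, Dnajb5 and Stip1, all SD libraries lay above all CS libraries. Hspa4 had 267, 259 and 247 rescaled CPM in CS and 287, 311 and 279 in SD (log2 fold change 0.18, 95% interval 0.00 to 0.36). The cold-inducible RNA-binding proteins had negative values that did not pass, Cirbp with 67.6, 53.0 and 36.1 rescaled CPM in CS and 39.6, 33.3 and 43.8 in SD, and Rbm3 with 63.7, 60.2 and 38.9 against 42.3, 39.6 and 41.1. CS 8 was the lowest CS library for both, at or below most SD libraries, and their median of -0.38 was -0.54 without CS 8 and SD 6 and -0.21 without CS 5. The list of glucocorticoid receptor targets also holds the receptor gene, Nr3c1, and is no measure of the hormone. Its median was 0.11 over 17 genes (0.19 without CS 8 and SD 6). In 1 of them (5.88%), Nfkbia, the groups did not overlap. In WT mice the median of these 17 genes was 0.72 and 12 rose. Fkbp5, a chaperone of the glucocorticoid receptor, had 31.3, 23.9 and 31.6 rescaled CPM in CS and 26.7, 51.1 and 30.3 in SD, again high in SD 6 alone.

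Genes of the synapse differed little from CS to SD. Ionotropic glutamate receptors and their auxiliary subunits had a median of 0.04 over 23 genes (WT -0.29), with intervals within 1.5-fold of no change for 20. Shisa6, an AMPA receptor auxiliary protein, had 23.3, 30.1 and 35.4 rescaled CPM in CS and 40.5, 46.8 and 45.6 in SD (log2 fold change 0.59, SE 0.15, limma adjusted p = 0.998), and it and Shisa7 (8.70% of the list) did not overlap. Metabotropic receptors had a median of 0.17 over 7 genes (WT -0.70), none of them without overlap. GABA-A receptor subunits had a median of -0.07 over 12 genes (0.05 without CS 8 and SD 6, WT -0.71, where 10 fell), with 11 intervals within 1.5-fold and none without overlap. For the postsynaptic scaffolds and adhesion proteins the median over 24 genes was 0.05, and for presynaptic release genes 0.04 over 19, with 23 and 16 intervals within 1.5-fold. All SD libraries lay above all CS libraries for Dlg2 (4.17%) among the scaffolds, and below for the adhesion protein Lrrtm1 (4.17%). The MEF2 factors and class IIa deacetylases, MEF2C included, had a median of 0.05 over 7 genes, and the sleep kinases (salt-inducible, CaM and MAP kinases) 0.00 over 7 (-0.11 without CS 8 and SD 6). Adenosine receptors and handling genes had a median of -0.03 over 6 genes, and cortical neuropeptides 0.18 over 11 (0.06 without CS 8 and SD 6, 0.46 without CS 5). In these 4 lists every gene had overlapping groups.

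Medians of the energy metabolism and translation lists also stayed near that of all genes, with cholesterol synthesis (-0.10) the farthest. Several of these lists still held a larger share of members below CS in every SD library than all genes did. Glycolysis and lactate genes had a median of 0.03 over 23 genes (WT 0.37), the TCA cycle -0.03 over 22, cholesterol synthesis -0.10 over 21 (-0.29 without CS 8 and SD 6), and haemoglobin and haem synthesis genes 0.04 over 13 (WT 0.47). Of these only Fh1 lay above CS in every SD library (4.55% of the TCA cycle list), and Sdhd (4.55%), Mvk and Pmvk (9.52% of the cholesterol list) lay below. Cytosolic ribosomal proteins had a median of -0.07 over 77 genes, where WT mice had 0.58. Of these, 13 (16.9%) lay below CS in every SD library and 1 above. Rps14 was the member above, at 217, 236 and 225 rescaled CPM in CS and 304, 266 and 301 in SD (log2 fold change 0.36, SE 0.08, limma adjusted p = 0.998). Among those below were Rpl29 (78.6, 75.3 and 73.9 in CS, 65.7, 40.4 and 37.6 in SD) and Rps12 (log2 fold change -0.50, SE 0.15). Ribosomal protein genes have many processed copies, so their counts are uncertain. The nuclear-encoded respiratory chain had a median of -0.04 over 78 genes, with 15 (19.2%) below and 2 (2.56%) above, against 0.52 in WT mice, where 48 rose. Mitochondrial ribosomal proteins had -0.01 over 74 genes (WT 0.23), with 11 (14.9%) below and 5 (6.76%) above. Among all genes tested, 4.56% lay below CS in every SD library and 4.49% above. Wholly lower members were thus more frequent in each of these 3 lists than among all genes, a difference in share that was not tested. Of the members below, the interval lay within 1.5-fold of no change for 11 of 13 cytosolic ribosomal proteins, 14 of 15 respiratory chain genes and 11 of 11 mitochondrial ribosomal proteins, with log2 fold changes down to -0.70, -0.63 and -0.30. Over all tested members of the 3 lists, this held for 73 of 77, 73 of 78 and 71 of 74. Potassium channels had a median of 0.05 over 61 genes, with Kcnn2 and Kcnq1 (3.28%) above, and collagens 0.05 over 38, with 1 (2.63%) above and 2 (5.26%) below. Histones had a median of 0.44 over 49 genes (0.77 without CS 8 and SD 6, 0.08 without CS 5, Mef2c f/f -0.01, WT 1.72), with 7 (14.3%) above and 1 (2.04%) below.

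**Figure D4:**
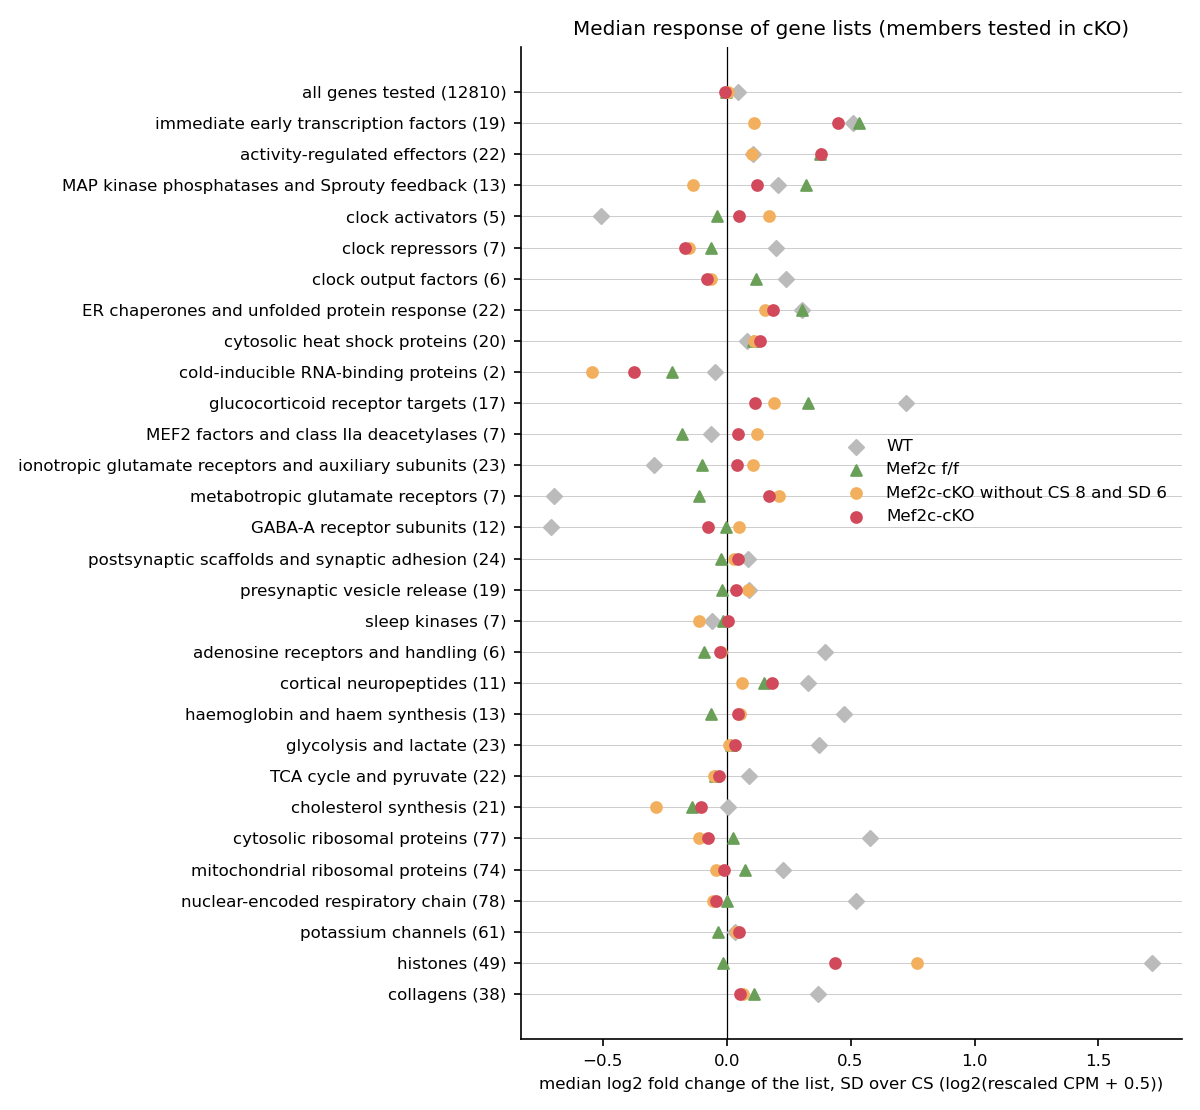
Median log2 fold change (SD over CS) of the 29 functional gene lists and of all genes tested, in Mef2c-cKO mice, in Mef2c-cKO mice without CS 8 and SD 6, in Mef2c f/f and in WT mice, with the number of genes tested in brackets. The medians of immediate early transcription factors and activity-regulated effectors are above 0 in the knockout and move towards 0 without these libraries, and those of GABA-A receptors, metabotropic glutamate receptors and respiratory chain genes are farther from 0 in WT mice than in either of the other genotypes. All values are without the correction for GC content.

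Marker lists of other cells were uneven over the libraries. Microglia and macrophage markers had a median of -0.30 over 10 genes, 0.14 without CS 8 and SD 6 and -0.54 without CS 5, with Mrc1 and Cd163 (20%) above in every SD library and P2ry12 (10%) below. Astrocyte markers had a median of -0.17, and 0.04 without CS 8 and SD 6, with S100b (10%) below. The striatal median was 0.11, -0.34 without CS 8 and SD 6 and 0.49 without CS 5. The 4 tested choroid plexus markers had -0.01, -0.82 without CS 8 and SD 6 and 0.83 without CS 5. Their summed level was 326 rescaled CPM in CS 5, and 7.21 to 24.9 in the other libraries of both groups. Meningeal fibroblast markers had higher values in SD, with a median of 0.49 over 10 genes, 0.43 without CS 8 and SD 6, 0.64 without CS 5 and 0.28 to 0.67 as each library was left out. Of these 10 genes 3 (30%), Col1a1, Slc22a6 and Aldh1a2, were above in every SD library, against the 4.49% of all genes. Their sum was 65.4 to 108 rescaled CPM in CS and 103 to 145 in SD, overlapping. Excitatory neuron markers had a median of -0.02, 0.11 without CS 8 and SD 6 and -0.22 without CS 5, and endothelial markers 0.08, 0.19 and -0.05. Medians were 0.10 for inhibitory neurons, -0.09 for the oligodendrocyte lineage, where Mog and Cldn11 (14.3%) were below, and 0.08 for pericytes and smooth muscle. The part of these cells in the lists above was not tested.

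The knockout's values were also read for the genes called in the other genotypes, which share no libraries with it. Each set was chosen by its p in the other genotype, so its median there is pushed away from 0 by the choice. How much of the gap to the knockout's median comes from this was not tested. Of the 3183 genes that rose in WT mice, 3056 were tested in Mef2c-cKO mice. Their median log2 fold change in the knockout was 0.00, where it was 0.55 in WT mice, and 51.3% were positive, against 48.2% of all genes. None was a DEG in the knockout. In 5.56% of these genes all SD libraries lay above all CS libraries, and in 4.25% below, against the 4.49% and 4.56% of all genes. The interval lay within 1.5-fold of no change for 72.8%. Of the 2643 genes that fell in WT mice, 2469 were tested. Their median was 0.00 in the knockout against -0.49 in WT mice, with 50.4% positive and 85.3% of intervals within 1.5-fold. The 2 that were called in the knockout, Cep295 and Fbxo8, rose. After the correction for GC content and length in both genotypes, 1144 of the 1158 genes that rose in WT mice had a median of 0.05 in the knockout, with 61.7% positive, against 49.0% of all genes and a median of 0.45 in WT mice. The 1369 tested of the 1392 that fell had -0.01, with 45.6% positive, against -0.46 in WT mice, and none of either set was a DEG in the knockout. The 5 DEGs of Mef2c f/f mice were Gadd45a (log2 fold change 0.99 there and 0.24 in Mef2c-cKO), Trib2 (0.76 and 0.55), Ccnd1 (0.65 and -0.09), L3mbtl1 (-0.60 and -0.14) and Zfyve28 (-0.73 and -0.07), and none of them was called in the knockout. Trib2, a pseudokinase, had 42.9, 35.5 and 31.5 rescaled CPM in the Mef2c-cKO CS libraries and 41.8, 101 and 36.3 in SD, high in SD 6 alone. The differences of these 5 genes between Mef2c-cKO and Mef2c f/f mice did not pass the interaction test (adjusted p 0.366 to 0.886). Since so few genes passed in Mef2c f/f mice, the genes with an unadjusted p of at most 0.05 there were also read. Of those higher in Mef2c f/f SD, 1054 were tested in the knockout, with a median of 0.02 and 55.8% positive, against 0.31 in Mef2c f/f mice. The 1046 lower ones had a median of -0.03 and 38.0% positive, against -0.32 in Mef2c f/f mice. Without CS 8 and SD 6 these shares turned to 40.8% and 53.9%, against 51.8% of all genes, and without CS 5 they were 60.2% and 34.3%, against 46.8%.

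**Figure D5:**
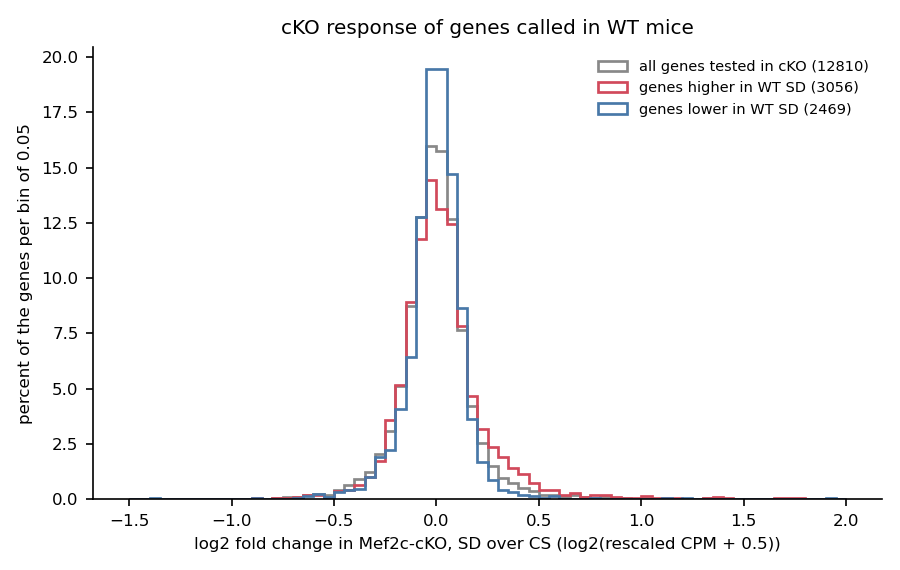
Distributions (percent of genes per bin of 0.05) of the log2 fold change (SD over CS) in Mef2c-cKO mice of genes that rose and genes that fell in WT mice, beside all genes tested. Both sets are centred at 0.00 in the knockout. Their medians were 0.55 and -0.49 in WT mice, where the genes were chosen. Values of both genotypes are without the correction for GC content.

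The difference in response was tested for each gene, without the correction for GC content and length. The log2 fold changes of WT mice followed GC content (Spearman rho 0.72), and how far the calls against WT mice rest on this was not tested. Against Mef2c f/f mice, 1 of 12860 genes (0.00778%), Cep295, responded differently. Against WT mice, 76 of 13415 genes (0.567%) did, 71 with a more positive response in the knockout (0.529%) and 5 with a more negative one (0.0373%). This number ran from 5 to 521 as single libraries were left out, 5 of them without CS 5 or SD 5 of the knockout and 521 without WT CS 2, and it was 6 with CPM as deposited, where the median difference over all genes was -0.32 in place of -0.05. Of the 76 genes, 66 passed the filter on CPM in both genotypes, 61 of them with a more positive response, and the other 10 only in one. The 5 most positive were Cep295 and Fbxo8, described above, Sycp3, Eps8l3 and Glp2r. The last 3 entered only through the knockout, Sycp3 and Eps8l3 through its SD group alone, so their values are given with no test. Sycp3, a component of the meiotic synaptonemal complex, had 0.633, 0.448 and 0.394 rescaled CPM in the Mef2c-cKO CS libraries and 1.87, 1.29 and 1.63 in SD, and 0.134 to 1.92 in WT libraries. Eps8l3 had at most 0.0472 in CS and 0.982 to 1.38 in SD, and at most 0.172 in WT mice. Glp2r was at 0.960 to 2.20 in WT libraries. The Mef2c f/f libraries held more of each than the Mef2c-cKO CS libraries, at 1.02 to 2.38 rescaled CPM for Sycp3, 0.225 to 1.64 for Eps8l3 and 4.83 to 18.1 for Glp2r.

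The 5 more negative responses were those of genes that rose, or had higher values, in WT mice. Sphk1, a sphingosine kinase, had 2.43, 1.63 and 1.67 rescaled CPM in Mef2c-cKO CS and 2.85, 2.03 and 2.15 in SD, against a rise of 1.54 in WT mice (difference -1.3, SE 0.28, adjusted p = 0.0442). Fam83d (difference -1.20, adjusted p = 0.047), Gpr137b (-0.85, 0.0431), Retsat, a retinol saturase (-0.79, 0.0442), and Hadh, a dehydrogenase of fatty acid oxidation (-0.76, 0.0402), were the others. Members of the lists with a different response from WT mice were the metabotropic receptors Grm3 (0.17 in the knockout and -1.01 in WT mice, adjusted p of the difference 0.0283) and Grm8 (0.22 and -0.86, 0.0441), the scaffold Dlg2 (0.14 and -0.74, 0.0442), the release factor Rims1 (0.12 and -0.85), the potassium channels Kcnc2 (0.13 and -0.74), Kcnh5 (0.18 and -0.69) and Kcnq1 (1.53 and 0.03), and the collagen Col19a1 (-0.01 and -1.01). WT mice also differ from the knockout in both the loxP alleles and Cre, so the Mef2c f/f comparison is the nearer control.

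The 6 libraries bounded most genes. The median SE of the log2 fold change was 0.118 and the median width of the 95% interval was 0.279 on each side. For 9939 genes (77.6%) the interval lay within 1.5-fold of no change (0.58 on the log2 scale) and for 11998 (93.7%) within 2-fold, leaving 812 genes whose response was not bounded to 2-fold, among them Fos, Egr2, Arc and Bdnf.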

How the data were processed

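RNA was extracted by the authors from the frontal cortex with TRIzol and RNeasy columns, samples were randomized, and polyadenylated RNA was made into stranded libraries (TruSeq Stranded mRNA) for paired-end sequencing. Per the study's methods, the authors checked and trimmed reads with FASTQC and Trimmomatic, aligned them to mm10 with STAR, kept uniquely mapped reads in HTSeq gene counts and converted the counts to the deposited CPM. Tool versions, the gene annotation and the strand setting of the counting are not given in the sources used here.

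The deposited table holds CPM of 21565 genes in 33 libraries. Dividing each library by its smallest value above 0 gave whole reads, to within 0.01, for 711645 of 711645 values. Replicates differed by far more than the sampling of reads, with a chi-square per gene of 17.8 to 93.9 within the Mef2c-cKO groups.

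A median-of-ratios factor per library, set over the 33 libraries, rescaled the CPM, and 0.5 was added before log2. A fold change on this scale understates the change of low genes. Each comparison was fitted with the linear models of limma 3.58.1 (R 4.3.3), using lmFit and a trended eBayes, on the compared groups alone, and interactions on 4 group means, called at an adjusted p of 0.05 or less. The adjusted p-values come from these fits across all genes. Alternatives were edgeR 4.0.16 (quasi-likelihood) and DESeq2 1.42.0, the study's tool, on the recovered reads, pseudocounts of 0.1 and 1, other scalings and filters, array quality weights, a shared fit with the Mef2c f/f libraries, no fold threshold, a correction for GC content and transcript length, a block for the replicate number, and single libraries left out in turn. The fits were tested on simulated data. Leaving out CS 8 and SD 6 together was added after these libraries were seen to stand apart. The correction for GC content and length was not run on the interactions. For Mef2c f/f or WT mice alone, edgeR, DESeq2, array quality weights, the replicate block and leaving out libraries were not run.

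Positions came from GENCODE M21, where 19230 symbols matched directly, 243 matched by synonym, 26 had more than 1 match and 2066 had none. Promoters came from RefSeq tables of GRCm38.p6, where all 3 DEGs matched. The genes examined and the gene lists were chosen with earlier results of these data known, so no p over a list is given. Genes are named if they are members of a list, DEGs of the knockout, genes that edgeR and DESeq2 both call, the 10 largest rises and falls among genes with a mean of at least 5 rescaled CPM and no overlap between groups, calls of an interaction (at most the 5 largest each way) or DEGs of Mef2c f/f mice. Neighbours of the named DEGs and Glp2r in the reduced fit were named by position and by being called there. WT libraries of recovery sleep served only to set the scaling factors. Read counts carry no molecular identifiers, and intervals describe the spread between libraries.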

Additional observations from a re-analysis of the deposited data

Results flagged for a closer look

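In groups of 4 to 10 libraries, 15 group and gene combinations with at least 3 reads in a library were examined for a single library far from the others by Dixon's ratio, and 2 were found, where chance gives about 1 in 20. Fbxo8 was at 66.2 rescaled CPM in WT CS 2, with the other WT CS libraries at 40.5 to 46.7, and Ptpn14 was at 10.9 rescaled CPM in WT CS 4, with the others at 6.05 to 7.87. The Mef2c-cKO groups hold 3 libraries each and were not examined in this way.

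The response of some genes differed between genotypes by the test of the difference itself. Cep295 rose by 1.91 more in Mef2c-cKO than in Mef2c f/f mice on the log2 scale, and by 2.41 more than in WT mice. Fbxo8 was also more positive in the knockout than in WT mice (1.84). More negative were Sphk1 (-1.3), Fam83d (-1.20), Gpr137b (-0.85), Retsat (-0.79) and Hadh (-0.76). The difference of Cep295 from WT mice was called in all 31 alternatives run and that of Fbxo8 in 30 of 31. Those of the 5 genes with a more negative response were lost in 16 (Hadh) to 20 (Retsat and Sphk1) of 29 or 30 alternatives.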

How the results depend on the processing

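The 3 DEGs of the knockout were found under pseudocounts of 0.1 and 1, CPM as deposited, factors over the compared libraries, quantile normalization, a filter of 5 CPM, edgeR, no fold threshold and a correction of each library for GC content and length, each of which gave 3 genes. Cep295 was called in every alternative run. The number of DEGs was 1 without a filter on low values, 291 with array quality weights (182 higher and 109 lower), 25 with DESeq2, 9 with the Mef2c f/f libraries in the fit, 4 without CS 8 and SD 6, and 1 to 3 with single libraries left out. The labels give the 2 groups the replicate numbers 5 and 7 in common but not that these pair the mice, and with the replicate number as a block 1 gene was called.

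The number of genes whose response differed from Mef2c f/f mice, 1 in the report, was 9 without a filter, 315 with array quality weights, 59 with DESeq2, 3 with the replicate block, 2 without CS 8 and SD 6, and 1 to 2 with single libraries left out. The number that differed from WT mice, 76 in the report, was 6 with CPM as deposited, 19 with quantile normalization, 241 at 5 CPM in every library, 4404 with array quality weights, 23 with edgeR, 960 with DESeq2, 1 with the replicate block and 23 without CS 8 and SD 6, and 5 to 521 with single libraries left out. The cause of these differences was not tested.

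After the correction for GC content and length the genes that rose in WT mice and were tested in the knockout went from 3056 to 1144, and their median in the knockout was 0.046 with 61.7% positive. Among list medians, those of MAP kinase phosphatases and Sprouty feedback (-0.14), GABA-A receptors (0.049), sleep kinases (-0.11) and mitochondrial ribosomal proteins (-0.041) moved without CS 8 and SD 6. At 5 CPM in every library, those of glucocorticoid receptor targets (-0.022), adenosine genes (0.021) and pericytes and smooth muscle (-0.027) moved, and without a filter the adenosine median was -0.077. With single libraries left out, medians ran from -0.022 to 0.26 for MAP kinase phosphatases and Sprouty feedback, from -0.10 to 0.00071 for clock outputs, from 0.037 to 0.28 for glucocorticoid receptor targets, from -0.028 to 0.089 for ionotropic glutamate receptors, from -0.13 to 0.054 for GABA-A receptors, from -0.072 to 0.058 for sleep kinases, from -0.039 to 0.023 for adenosine genes, from -0.063 to -0.012 for the TCA cycle and from -0.22 to 0.040 for excitatory neuron markers. DESeq2 called 4 list members. Without a filter, 16890 genes had an interval within 1.5-fold of no change and 19958 within 2-fold. Depth was 29593825 reads or more. How far depth and the spread between libraries each limit the responses that 3 libraries a group can bound was not tested.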
